A study of Mus musculus with 9 samples.

Results

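The 35 genes described here encode the cytosolic and mitochondrial heat shock proteins, their cochaperones and 2 heat shock transcription factors. They were chosen by name, as rows of the deposited expression table whose Ensembl mouse identifier maps to the symbol, and all 35 were found among its 55335 genes. The tissue was substantia nigra, whose dopaminergic neurons die in Parkinson disease, and RNA-seq libraries came from 3 groups of mice with 3 libraries each. MPTP plus exercise mice and MPTP mice both received intraperitoneal MPTP, a toxin whose metabolite damages dopaminergic neurons, as its hydrochloride in saline at 20 mg/kg, given 2 times a week for 5 weeks. The MPTP plus exercise mice also ran on a wheel of their own accord over 2 months that began after the first injection. Vehicle mice received saline by injection at the same times. No group that ran without MPTP is among these libraries, so MPTP plus exercise differs from MPTP by running and from vehicle by both. The sources used here do not give strain, sex, age or the time between running and tissue collection. Levels are FPKM, fragments scaled to transcript length and library size, as the authors computed them, which allows levels of different genes to be compared per length.

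Heat shock proteins are chaperones that hold or refold unfolded proteins. HSP70 binds short hydrophobic stretches, J-domain proteins (the Dnaj genes) deliver clients to it and stimulate its ATPase, and HSP110 proteins and BAG-domain proteins release its nucleotide. HSP90 acts later, on nearly folded kinases, steroid receptors and other clients, helped by cochaperones, while the HSP60 and HSP10 chaperonin folds proteins inside mitochondria and small heat shock proteins hold unfolded proteins without ATP. Heat shock factor 1, the product of Hsf1, binds repeated GAA units in the promoters of the inducible members and is regulated mainly at the protein level. In brain the constitutive forms are abundant in neurons, and several small heat shock proteins are found in glia and in vessel walls.

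Markers of the substantia nigra and of neighbouring tissue differed widely between libraries of 1 group. The dopaminergic markers were present, but unevenly. Their sum (10 genes) was 51.6, 78.8 and 78.3 FPKM in MPTP plus exercise mice. It was 75.0, 47.6 and 96.9 FPKM in MPTP mice and 78.8, 52.7 and 66.2 in vehicle mice. Th and Slc6a3, given next, did not follow that sum in every library. Th, tyrosine hydroxylase of dopamine synthesis, had 2.66, 5.35 and 6.69 FPKM in MPTP plus exercise mice, 5.93, 1.64 and 12.5 in MPTP mice and 5.30, 2.97 and 15.6 in vehicle mice. Slc6a3, the dopamine transporter, had 0.149, 0 and 10.6 FPKM in MPTP plus exercise mice, 2.75, 0.0377 and 14.4 in MPTP mice and 3.40, 1.41 and 10.8 in vehicle mice, so that library 2 of the MPTP plus exercise mice is listed at 0 and MPTP library 2 and MPTP plus exercise library 1 had the lowest values above 0. Summed choroid plexus markers (12 genes) spanned 22.7 to 959 FPKM in MPTP plus exercise mice, 964 to 2093 in MPTP mice and 39.9 to 349.6 in vehicle mice. Summed markers of cortical and hippocampal excitatory neurons (10 genes) spanned 321 to 853 FPKM in MPTP plus exercise mice, 448 to 1039.9 in MPTP mice and 184 to 708 in vehicle mice. In bulk tissue, fewer cells of a type and less RNA per cell cannot be told apart. Steps between the low FPKM values place the depths of the 9 libraries within 1.21-fold of each other, and the absolute depth is unknown.

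Short promoter stretches are shown for members with a motif match whose group values did not overlap between MPTP plus exercise and MPTP (Hspd1, Hsph1, Dnaja1, Hspa1b), together with Hspa1a, Hspe1, Dnajb6 and the small heat shock protein Hspb1, since the heat shock factor motif is what textbook members of the response share. Promoters of 250 bases before to 50 after the gene start came from RefSeq (GRCm38.p6) and were available for 28 members. Searched on both strands were GAANNTTC and TTCNNGAA (a motif of 2 units, each its own reverse complement) and GAANNTTCNNGAA and TTCNNGAANNTTC (3 units, which contain the shorter motif). The stretches printed lie before a gene start of the RefSeq table, and those of Hspe1, Hspd1, Dnajb6, Hsph1 and Dnaja1 overlap exons of some GENCODE transcripts (for Hspe1, an exon of Hspd1). Hspd1 has another RefSeq start further upstream, and its stretch lies after that start. The 3-unit match of Hsph1 lies after the RefSeq start and is not shown. Capitals mark the match, and each stretch runs 5′ to 3′ on the strand of its gene. The Hspa1a and Hspa1b stretches are the same letter for letter.
Hspe1 (chr1:55088053-55088082, plus strand): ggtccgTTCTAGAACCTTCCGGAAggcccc
Hspd1 (chr1:55088053-55088082, minus strand): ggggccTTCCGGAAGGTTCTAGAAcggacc
Dnajb6 (chr5:29735844-29735872, plus strand): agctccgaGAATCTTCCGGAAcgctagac
Hsph1 (chr5:149636351-149636380, minus strand): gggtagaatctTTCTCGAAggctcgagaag
Dnaja1 (chr4:40722333-40722362, plus strand): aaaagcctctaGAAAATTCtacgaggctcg
Hspa1a (chr17:34972228-34972285, minus strand): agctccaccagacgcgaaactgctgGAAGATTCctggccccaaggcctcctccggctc
Hspa1b (chr17:34959310-34959367, minus strand): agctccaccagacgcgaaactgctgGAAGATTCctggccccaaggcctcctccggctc
Hspb1 (chr5:135887777-135887854, plus strand): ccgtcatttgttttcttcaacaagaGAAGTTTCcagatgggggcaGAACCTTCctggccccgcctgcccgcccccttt

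The 2-unit motif occurred in 15 of the 28 member promoters (53.6%), against 17.0% of the promoters of 27025 genes. The 3-unit motif occurred in 5 of 28 (17.9%), those of Chordc1, Dnajb6, Hspd1, Hspe1 and Hsph1, against 0.662% of the 27025. Hspd1 and Hspe1 lie on opposite strands of chromosome 1 and overlap at their 5′ ends, with GENCODE starts 111 bases apart. The stretch printed for them is the same DNA read on opposite strands. A match is only a run of letters, and no match says nothing of a factor elsewhere.

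All 35 members were above the filter of a mean of 0.5 FPKM over the 9 libraries, and their levels spanned a range of 2.55 to 435 FPKM in mean level. The cytosolic HSP90 genes and the constitutive HSP70 were the highest. Hsp90ab1, the constitutive HSP90, averaged 459 ± 21.4 FPKM in MPTP plus exercise mice, 423 ± 19.7 in MPTP mice and 422 ± 14.3 in vehicle mice (SD, n = 3 each, as in all means below). Hsp90aa1, the inducible HSP90, and Hspa8, the constitutive HSP70 that also uncoats clathrin vesicles, followed at mean levels of 264 and 254 FPKM over the 9 libraries. The stress-inducible HSP70 genes Hspa1a and Hspa1b stood at the other end, at 3.26 and 2.83 FPKM, near Hsf1 at 2.67 FPKM and Hspb6 at 2.55 FPKM.

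**Figure D1:**
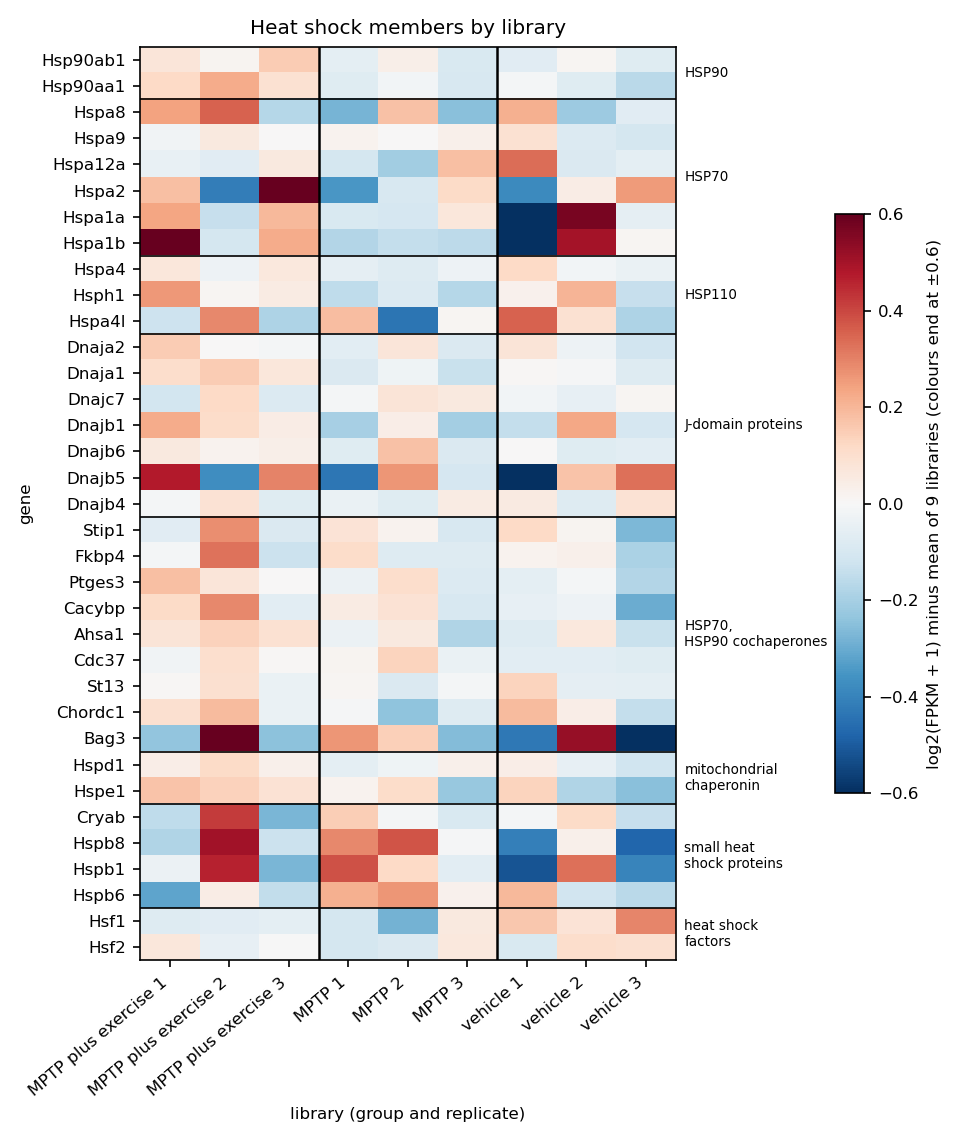
Difference of each member from its own mean over the 9 libraries, in log2(FPKM + 1), with the libraries of the 3 groups side by side on the x axis and the genes by role on the y axis; red is above and blue below the mean. MPTP plus exercise library 2 was the highest of all 9 for 14 of 35 members and vehicle library 3 the lowest for 12. Bag3, Hspb1 and Cryab stand out by library more than by group.

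MPTP plus exercise was set against MPTP to ask what running changed in toxin-treated mice. Most members were higher in MPTP plus exercise mice, by small amounts, and none passed the test. In limma on log2(FPKM + 1), adjusted by Benjamini-Hochberg over 15997 genes with a threshold of 0.05, 0 of 35 members were called, against 0.0% of all genes tested. At an unadjusted p under 0.05, Dnaja1 and Hsp90aa1 were higher (2 of 35, against 1.11% of all genes in that direction) and Hspb6 was lower (1 of 35, against 2.89%). The log2 fold change was above 0 for 28 of 35 members, against 45.7% of all genes, and its median was 0.077 over the members and −0.012 over all genes. The share of all genes depended on level: with a mean of at least 5 FPKM it was 52.4%, against 22 of 27 members. The 3 values of MPTP plus exercise mice lay wholly above those of MPTP mice for 8 members, Ahsa1, Dnaja1, Dnajb1, Hsp90aa1, Hspa1b, Hspa4, Hspd1 and Hsph1, or 8 of 35 against 2.66% of all genes tested. They lay wholly below for 0 of 35, against 5.36%. Fold changes here and below are differences of log2(FPKM + 1) with their standard error, a scale that understates the change of the lowest genes.

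Both HSP90 genes were higher in MPTP plus exercise mice. Hsp90aa1 (chr12:110690605-110702728 on GRCm38, minus strand) had 286, 307 and 280.3 FPKM in MPTP plus exercise mice, 250.1, 261 and 246 in MPTP mice and 261, 250.1 and 235 in vehicle mice. The lowest MPTP plus exercise value stood above the highest of the other 6 libraries, at a log2 fold change of 0.21 ± 0.077 against MPTP (unadjusted p = 0.026, limma adjusted p = 0.9999). Hsp90ab1 had 456, 439.6 and 482 FPKM in MPTP plus exercise mice, 417, 446 and 408 in MPTP mice and 414, 438 and 413 in vehicle mice, which overlapped between MPTP plus exercise and MPTP by library 2 of each group (log2 fold change 0.12 ± 0.076). The summed level of both genes spanned 742 to 762.4 FPKM in MPTP plus exercise mice, 654 to 706 in MPTP mice and 648 to 688 in vehicle mice, with no overlap between MPTP plus exercise and either other group.

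Among the HSP70 genes 5 of 6 were higher in MPTP plus exercise than in MPTP mice. Hspa8 (chr9:40800984-40810087 on GRCm38, plus strand) had 297, 322 and 223 FPKM in MPTP plus exercise mice, 207, 284 and 211 in MPTP mice and 291, 216 and 239.6 in vehicle mice, so that the groups overlapped, with libraries 1 and 2 of the MPTP plus exercise mice, MPTP library 2 and vehicle library 1 at 284 FPKM or more. Its log2 fold change against MPTP was 0.26 ± 0.18. The inducible Hspa1b had 4.73, 2.43 and 3.30 FPKM in MPTP plus exercise mice, 2.27, 2.34 and 2.31 in MPTP mice and 1.13, 4.21 and 2.71 in vehicle mice. The MPTP libraries lay within 2.27 to 2.34 FPKM and all MPTP plus exercise values were above them, but vehicle mice overlapped both (log2 fold change 0.41 ± 0.30 against MPTP, unadjusted p = 0.21). Its near-identical neighbour Hspa1a had 3.91, 2.78 and 3.77 FPKM in MPTP plus exercise mice, 2.91, 2.88 and 3.37 in MPTP mice and 1.58, 5.18 and 3.01 in vehicle mice, with overlap. Because reads of the pair can be split between the 2 copies, their sum is given as well, and it was 8.64, 5.21 and 7.07 FPKM in MPTP plus exercise mice, 5.17, 5.22 and 5.68 in MPTP mice and 2.71, 9.38 and 5.72 in vehicle mice, which overlapped between all groups. Hspa2, an HSP70 best known from testis, averaged 11.8 ± 4.52 FPKM in MPTP plus exercise mice, 9.40 ± 1.65 in MPTP mice and 10.1 ± 2.40 in vehicle mice. Hspa9, mitochondrial HSP70, averaged 52.6 ± 1.47 FPKM in MPTP plus exercise mice, 52.7 ± 0.509 in MPTP mice and 50.96 ± 3.89 in vehicle mice and was the least variable member. Hspa12a, a distant relative of HSP70, had 23.96, 23.5 and 25.8 FPKM in MPTP plus exercise mice, 22.9, 21.2 and 28.2 in MPTP mice and 31.4, 23.2 and 23.7 in vehicle mice.

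The HSP110 genes, nucleotide exchange factors of HSP70, were all higher in MPTP plus exercise than in MPTP mice. Hsph1 (chr5:149614287-149636376 on GRCm38, minus strand) had 41.3, 34.5 and 35.5 FPKM in MPTP plus exercise mice, 30.7, 32.3 and 30.3 in MPTP mice and 34.9, 39.6 and 31.05 in vehicle mice. The lowest MPTP plus exercise value was above the highest MPTP value, at a log2 fold change of 0.24 ± 0.11 (unadjusted p = 0.052, adjusted p = 0.9999), and vehicle mice overlapped both groups. Hspa4 had 45.2, 42.2 and 45.1 FPKM in MPTP plus exercise mice, 41.4, 40.7 and 42.1 in MPTP mice and 46.95, 42.6 and 41.9 in vehicle mice, a narrower gap (log2 fold change 0.089 ± 0.075). Hspa4l had 21.6, 29.1 and 20.6 FPKM in MPTP plus exercise mice, 26.9, 17.2 and 23.8 in MPTP mice and 30.4, 25.2 and 20.6 in vehicle mice, and all groups overlapped.

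Of the J-domain genes, 6 of 7 were higher in MPTP plus exercise than in MPTP mice. Dnaja1 (chr4:40722150-40737149 on GRCm38, plus strand), a main partner of cytosolic HSP70, had 31.3, 32.5 and 30.6 FPKM in MPTP plus exercise mice, 27.4, 28.5 and 26.4 in MPTP mice and 29.3, 28.98 and 27.5 in vehicle mice. All 3 MPTP plus exercise values were above all 6 others, at a log2 fold change of 0.19 ± 0.070 against MPTP (unadjusted p = 0.024, adjusted p = 0.9999), the smallest p of the members in this comparison. Dnajb1 (chr8:83608193-83612653 on GRCm38, plus strand), the inducible HSP40, had 18.8, 17.3 and 16.5 FPKM in MPTP plus exercise mice, 13.8, 16.4 and 13.7 in MPTP mice and 14.3, 18.9 and 14.8 in vehicle mice. The gap to MPTP was 16.47 against 16.43 FPKM at its closest (log2 fold change 0.25 ± 0.12), and vehicle library 2 was the highest of all. Dnajb6, a suppressor of aggregation, had 16.1, 15.7 and 15.8 FPKM in MPTP plus exercise mice, 14.6, 17.6 and 14.5 in MPTP mice and 15.5, 14.6 and 14.7 in vehicle mice, and MPTP library 2 stood above every other library. Dnajc7 had 26.2, 30.9 and 26.7 FPKM in MPTP plus exercise mice, 28.1, 29.99 and 29.5 in MPTP mice and 28.02, 27.4 and 28.6 in vehicle mice, the one J-domain member with a negative difference (−0.066 ± 0.082). The remaining J-domain members overlapped between all groups. Dnaja2, a close relative of Dnaja1, averaged 58.4 ± 3.81 FPKM in MPTP plus exercise mice, 55.5 ± 3.36 in MPTP mice and 55.7 ± 3.82 in vehicle mice. Dnajb4 averaged 3.25 ± 0.239 FPKM in MPTP plus exercise mice, 3.18 ± 0.183 in MPTP mice and 3.30 ± 0.253 in vehicle mice.

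Cochaperones of HSP70 and HSP90 were higher in MPTP plus exercise than in MPTP mice for 8 of 9. Ahsa1, the activator of the HSP90 ATPase, had 22.8, 23.9 and 23.1 FPKM in MPTP plus exercise mice, 21.1, 22.6 and 18.98 in MPTP mice and 20.4, 22.7 and 19.6 in vehicle mice. MPTP plus exercise mice were above every other library, though the closest values were 22.84 against 22.66 FPKM in vehicle mice, and the log2 fold change against MPTP was 0.15 ± 0.089 (unadjusted p = 0.12). Chordc1, an HSP90 cochaperone, had 11.5, 12.4 and 10.4 FPKM in MPTP plus exercise mice, 10.7, 8.92 and 10.1 in MPTP mice and 12.4, 11.1 and 9.61 in vehicle mice. Ptges3, the p23 cochaperone that stabilises closed HSP90, had 47.9, 44.5 and 42.3 FPKM in MPTP plus exercise mice, 41.1, 45.5 and 39.8 in MPTP mice and 40.4, 41.8 and 37.3 in vehicle mice. Cacybp, a cochaperone that also binds ubiquitin ligases, had 37.99, 43.05 and 33.5 FPKM in MPTP plus exercise mice, 36.3, 37.2 and 32.7 in MPTP mice and 33.9, 34.3 and 28.3 in vehicle mice. The groups overlapped between MPTP plus exercise and MPTP for these 3. Cdc37, which brings kinases to HSP90, had 15.7, 17.1 and 15.99 FPKM in MPTP plus exercise mice, 16.1, 17.6 and 15.5 in MPTP mice and 15.2, 15.2 and 15.1 in vehicle mice, and was the 1 of 9 that was not higher. The last 4 cochaperones overlapped between all groups. Stip1, the adaptor that links HSP70 to HSP90, averaged 95.4 ± 14.3 FPKM in MPTP plus exercise mice, 92.2 ± 5.66 in MPTP mice and 89.6 ± 12.2 in vehicle mice. Fkbp4, an HSP90 immunophilin of steroid receptors, averaged 53.9 ± 9.26 FPKM in MPTP plus exercise mice, 50.7 ± 3.996 in MPTP mice and 49.6 ± 4.29 in vehicle mice. St13, an HSP70-interacting protein, averaged 15.6 ± 0.787 FPKM in MPTP plus exercise mice, 14.98 ± 0.575 in MPTP mice and 15.4 ± 1.25 in vehicle mice. None of these 3 genes separated any pair of groups. Bag3, the HSP70 partner that feeds selective autophagy, had 3.57, 8.74 and 3.55 FPKM in MPTP plus exercise mice, 5.47, 4.96 and 3.50 in MPTP mice and 3.002, 6.74 and 2.55 in vehicle mice, with 1 high library in the MPTP plus exercise and vehicle groups and overlap throughout.

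The mitochondrial chaperonin genes were both higher in MPTP plus exercise than in MPTP mice. Hspd1, HSP60, had 62.00, 65.3 and 61.7 FPKM in MPTP plus exercise mice, 57.9, 59.2 and 61.5 in MPTP mice and 62.04, 58.1 and 55.4 in vehicle mice, where the closest MPTP plus exercise and MPTP values were 61.68 and 61.50 FPKM. Hspe1, HSP10, averaged 34.5 ± 1.02 FPKM in MPTP plus exercise mice, 30.8 ± 3.75 in MPTP mice and 29.4 ± 4.50 in vehicle mice. Their summed level spanned 95.1 to 99.9 FPKM in MPTP plus exercise mice, 88.2 to 93.2 in MPTP mice and 81.6 to 96.6 in vehicle mice, apart between MPTP plus exercise and MPTP. Of the other genes of mitochondrial protein quality control, 4 of 10 were higher.

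The small heat shock proteins had log2 fold changes below 0 in MPTP plus exercise against MPTP for 4 of 4, of which that of Cryab was near 0. Hspb6 (chr7:30552178-30555443 on GRCm38, plus strand), found in muscle and brain, had 1.83, 2.63 and 2.18 FPKM in MPTP plus exercise mice, 3.08, 3.22 and 2.58 in MPTP mice and 3.03, 2.26 and 2.15 in vehicle mice. The MPTP group was high, and only library 2 of the MPTP plus exercise mice (2.63 FPKM) reached into its range at 2.58 FPKM (log2 fold change −0.31 ± 0.13, unadjusted p = 0.047, adjusted p = 0.9999). Hspb8 (chr5:116408491-116422864 on GRCm38, minus strand), the partner of Bag3, had 7.61, 12.8 and 7.92 FPKM in MPTP plus exercise mice, 10.9, 11.7 and 8.72 in MPTP mice and 6.33, 8.95 and 6.02 in vehicle mice. Hspb1, HSP25 of mouse, had 4.22, 6.37 and 3.43 FPKM in MPTP plus exercise mice, 5.97, 4.82 and 4.13 in MPTP mice and 2.74, 5.73 and 3.07 in vehicle mice. Cryab, the αB-crystallin abundant in oligodendrocytes, had 38.9, 58.3 and 35.6 FPKM in MPTP plus exercise mice, 48.00, 42.9 and 40.5 in MPTP mice and 42.9, 46.9 and 39.2 in vehicle mice. For these 3 library 2 of the MPTP plus exercise mice was the highest of all 9 and the groups overlapped. The mean FPKM of Cryab was slightly higher in MPTP plus exercise mice (44.3 against 43.8 in MPTP mice), while its log2 fold change was −0.015 ± 0.17. The signs of Hspb1 and Cryab depended on single libraries. For Hspb1 the difference was −0.096 with all libraries, 0.066 without MPTP plus exercise library 3 and 0.021 without MPTP library 1. For Cryab it was 0.059 without MPTP plus exercise library 1, 0.12 without MPTP plus exercise library 3 and 0.051 without MPTP library 1. Hspb8 differed by −0.16 ± 0.21 with all libraries, by −0.034 without MPTP plus exercise library 1 and by −0.38 without MPTP plus exercise library 2.

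Of the heat shock factors, Hsf1 (chr15:76477422-76501913 on GRCm38, plus strand) had 2.45, 2.48 and 2.50 FPKM in MPTP plus exercise mice, 2.39, 1.99 and 2.79 in MPTP mice and 3.07, 2.86 and 3.47 in vehicle mice. Both MPTP-treated groups were below vehicle, the MPTP plus exercise mice with all 3 libraries within 2.45 to 2.50 FPKM, and the difference between MPTP plus exercise and MPTP was 0.043 ± 0.10. Hsf2, a related factor that can pair with Hsf1, averaged 2.58 ± 0.144 FPKM in MPTP plus exercise mice, 2.46 ± 0.227 in MPTP mice and 2.66 ± 0.277 in vehicle mice.

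**Figure D2:**
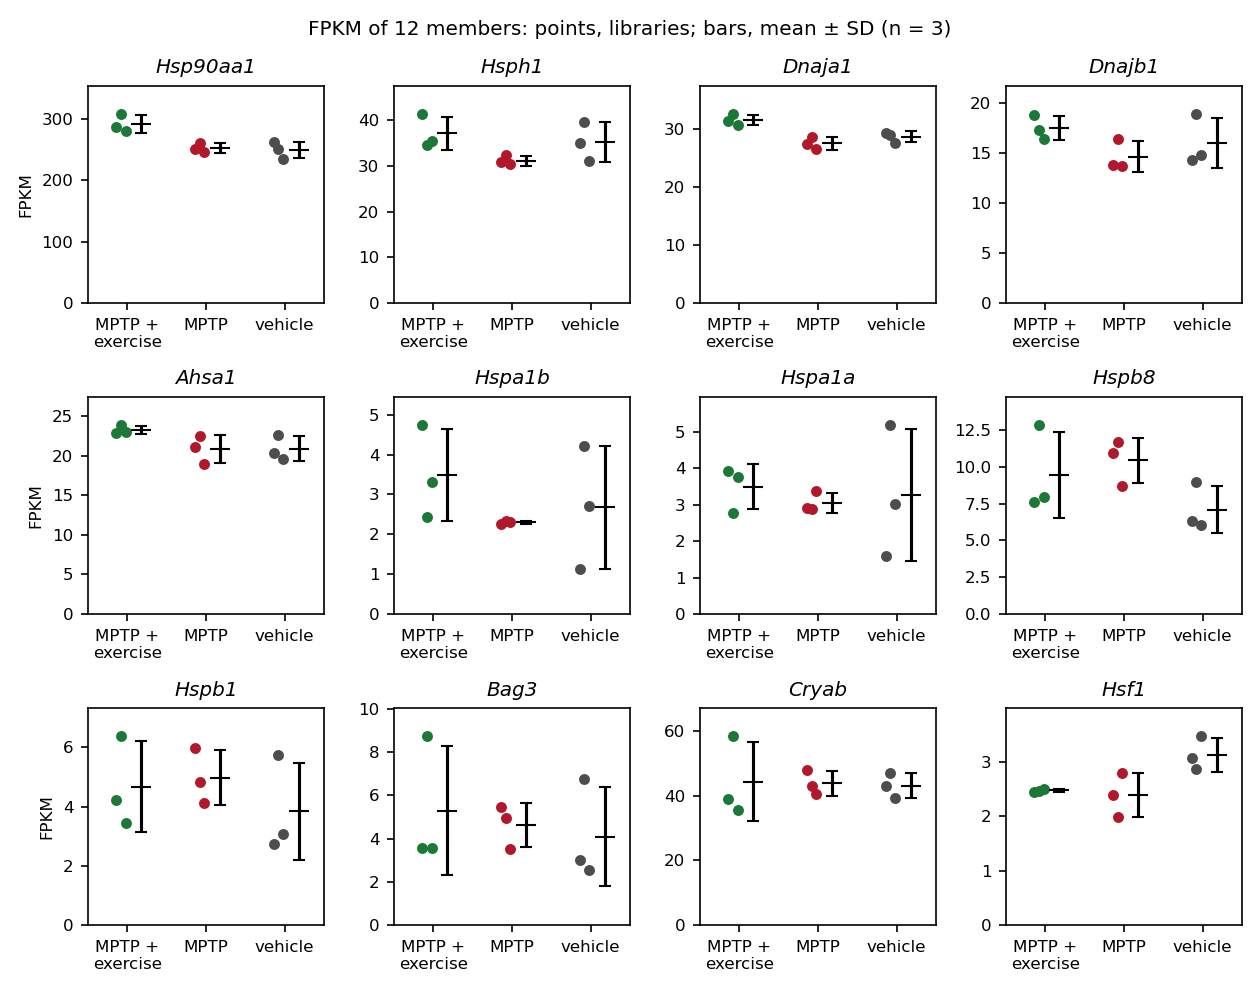
FPKM of 12 members by library (points) with mean and SD of 3 libraries per group (bars); each y axis starts at 0 and has its own scale. Hsp90aa1, Dnaja1 and Ahsa1 of MPTP plus exercise mice stand above both other groups, Hsph1, Dnajb1 and Hspa1b above MPTP but not vehicle, and Hspb1, Bag3 and Cryab overlap in every pair of groups.

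A list of 16 heat-responsive members was chosen with earlier results known and holds Hspa1a, Hspa1b, Hspa8, Hsph1, Hsp90aa1, Dnajb1, Dnaja1, Dnajb4, Hspb1, Bag3, Hspd1, Hspe1, Chordc1, Ahsa1, Stip1 and Cacybp. It was higher in MPTP plus exercise than in MPTP mice for 15 of 16, with a median log2 fold change of 0.16 against −0.012 over all genes, and 0 of 16 passed adjustment. Hspb1 was the exception. The count rests on the choice of genes. Hspb8 and Cryab, also heat-inducible, are not in the list, and with both added, after their values were seen, 15 of 18 were higher (median 0.15). The summed level of the 16 spanned 852 to 1028 FPKM in MPTP plus exercise mice, 780.3 to 895 in MPTP mice and 778 to 906 in vehicle mice, and the groups overlapped. The largely constitutive Hspa8 made up a large part of that sum. Without Hspa8, left out after its values were seen, the other 15 spanned 629 to 706 FPKM in MPTP plus exercise mice, 569 to 611 in MPTP mice and 538 to 615 in vehicle mice. Hsp90aa1 made up a large part of this smaller sum, at 280.3 to 307 FPKM in MPTP plus exercise mice. That gene was itself apart from both other groups, and the sum was not taken without it. Marker lists of other cells and states also differed between these libraries. Endothelial markers were lower in MPTP plus exercise mice for 12 of 12, 7 of them at an unadjusted p under 0.05, and their sum spanned 98.1 to 115 FPKM in MPTP plus exercise mice, 116 to 138 in MPTP mice and 105 to 118 in vehicle mice. Markers of smooth muscle, pericytes and fibroblasts were lower for 12 of 12 (sums of 52.9 to 69.2 FPKM in MPTP plus exercise mice, 71.4 to 81.6 in MPTP mice and 65.7 to 96.6 in vehicle mice), and choroid plexus markers were lower for 12 of 12. Interferon response genes were lower for 16 of 16 (sums of 56.05 to 61.4 FPKM in MPTP plus exercise mice, 62.6 to 153 in MPTP mice and 39.4 to 41.4 in vehicle mice). Genes known to be induced by glucocorticoids were higher for 11 of 13 tested, and immediate early genes for 21 of 28. Markers of neurons, in which constitutive chaperones are abundant, were higher for 8 of 10 and overlapped, with sums of 1131 to 1644 FPKM in MPTP plus exercise mice, 1091 to 1425 in MPTP mice and 1037 to 1355 in vehicle mice. Microglia markers were lower for 10 of 12, ependymal markers for 8 of 8 and GABAergic neuron markers for 5 of 6. Astrocyte markers were higher for 6 of 12, oligodendrocyte markers for 7 of 12, dopaminergic markers for 3 of 8 tested, thalamus markers for 6 of 12 and cortical and hippocampal markers for 7 of 10. The part of these cells and states in the members' differences was not tested.

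**Figure D3:**
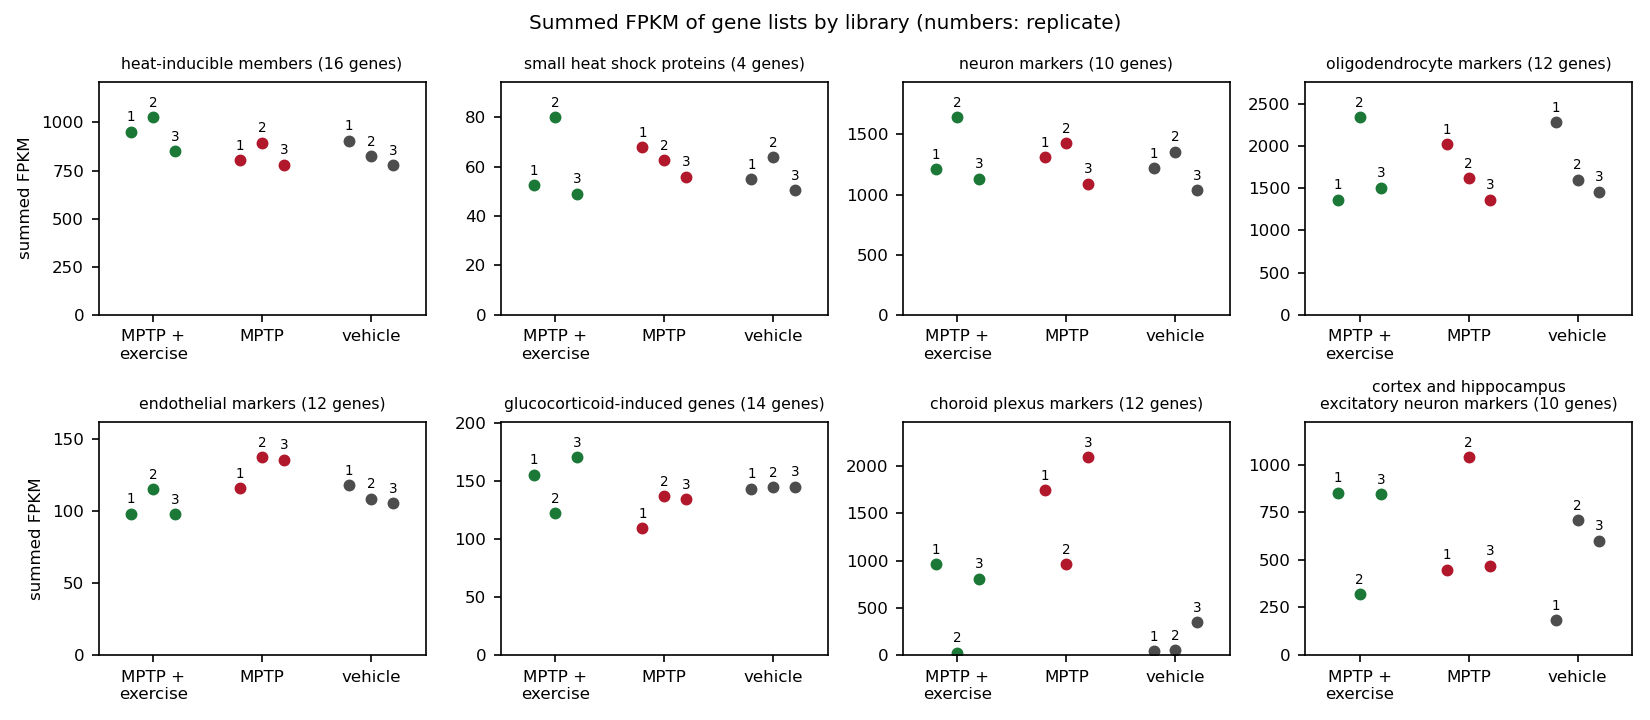
Summed FPKM of 8 gene lists in each library (numbers give the replicate), with y axes from 0 and the groups on the x axis. The heat-inducible members and the neuron markers are highest in MPTP plus exercise library 2, the endothelial sums of MPTP plus exercise mice all lie below those of MPTP mice, and the choroid plexus sums run from 22.7 to 2093 FPKM.

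How far these counts depend on the scale of the libraries was checked directly. Ahsa1, Dnaja1, Dnajb1, Hsp90aa1, Hspa1b and Hsph1 had no overlap between MPTP plus exercise and MPTP under all 5 scalings, the deposited one and 4 others, while Hspa4 and Hspd1 overlapped in 3 of the 5. Hspe1 was apart as higher in 3 of the 5 and Hsp90ab1 in 2, and Hspb6 was apart as lower in 2. Over the 5 scalings 7 to 8 of 35 members were apart as higher, against 2.35% to 3.78% of all genes. The count of members above 0 was 27 to 31 of 35 over the 5 scalings, against 43.0% to 52.5% of all genes. Leaving out 1 library at a time, it was 23 to 31 of 35, with the median at 0.055 to 0.11.

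MPTP was set against vehicle to ask what the toxin alone changed. The MPTP libraries are those of the comparison above, so opposite signs in these comparisons are not separate evidence. At the deposited scale the members were split between higher and lower, and the largest differences were those of Hspb8, Hspb1 and Hsf1. None of 35 members passed the adjusted threshold (limma, 0 of 35 against 0.0125% of all genes, which is 2 of 15997). At an unadjusted p under 0.05 Hspb8 was higher (1 of 35 against 2.61%) and Hsf1 was lower (1 of 35 against 1.48%). The log2 fold change was above 0 for 18 of 35 members, against 48.1% of all genes, with a median of 0.0048 over the members and −0.0059 over all genes. The groups did not overlap for Cdc37, higher in MPTP mice (1 of 35 against 5.2%), and for Hsf1, lower in MPTP mice (1 of 35 against 4.23%).

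Hspb8 averaged 10.4 ± 1.54 FPKM in MPTP mice and 7.10 ± 1.61 FPKM in vehicle mice, a log2 fold change of 0.51 ± 0.21 (unadjusted p = 0.040, adjusted p = 0.9915). Only the lowest MPTP library, 8.72 FPKM, lay under the highest vehicle library, 8.95 FPKM. The other small heat shock proteins were higher as well, Hspb1 by 0.34 ± 0.26, Hspb6 by 0.19 ± 0.13 and Cryab by 0.027 ± 0.17, each with overlap and none past the test. Hsf1 was at 2.39 ± 0.402 FPKM in MPTP mice against 3.14 ± 0.310 FPKM in vehicle mice (−0.29 ± 0.10, unadjusted p = 0.022, adjusted p = 0.9915), with the closest values 2.79 and 2.86 FPKM. Cdc37 differed by 0.10 ± 0.076, and its 3 vehicle values lay within 15.09 to 15.19 FPKM. With libraries rescaled to the same sum Cdc37 differed by 0.031. All 3 HSP110 genes had negative differences, −0.17 ± 0.11 for Hsph1, −0.078 ± 0.075 for Hspa4 and −0.17 ± 0.20 for Hspa4l, as had Chordc1 (−0.14 ± 0.11).

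In the same libraries interferon response genes were higher in MPTP mice for 16 of 16, with 14 at an unadjusted p under 0.05. Choroid plexus markers were higher for 12 of 12, microglia markers for 11 of 12 and cortical and hippocampal markers for 10 of 10, and thalamus markers were lower for 11 of 12. Other lists were mixed. Dopaminergic markers were higher for 5 of 8 tested, neuron markers for 6 of 10, astrocyte markers for 8 of 12 and endothelial markers for 9 of 12. Oligodendrocyte markers were lower for 9 of 12, GABAergic neuron markers for 4 of 6 and glucocorticoid-induced genes for 9 of 13 tested. Immediate early genes were lower for 22 of 28. Their part in the members' differences was not tested. The count of members above 0 depended on the scale. The deposited FPKM of all genes summed to 326614 to 347524 in MPTP libraries and to 318416 to 319431 in vehicle libraries, and with every library rescaled to the same sum 7 of 35 members were above 0, against 31.9% of all genes. At that scale 0 of 35 members were apart as higher, against 2.65% of all genes, and 5 of 35 as lower, against 8.65% (Dnaja1, Hsf1, Hsp90ab1, Hspa4 and Hsph1). The MPTP and vehicle values of Hsf1 did not overlap under each of the 5 scalings.

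MPTP plus exercise was also set against vehicle. This comparison shares its libraries with both others, so its values stand beside theirs and are no separate evidence. None of 35 members passed the adjusted threshold (limma, 0 of 35 against 0.0% of all genes). At an unadjusted p under 0.05 Hsp90aa1 was higher (1 of 35 against 3.12%) and Hsf1 was lower (1 of 35 against 3.43%). The log2 fold change was above 0 for 28 of 35 members against 44.7% of all genes, with a median of 0.11 over the members and −0.022 over all genes. The groups did not overlap for 7 higher members, Ahsa1, Cdc37, Dnaja1, Dnajb6, Hsp90aa1, Hsp90ab1 and Ptges3 (7 of 35 against 6.38%), and for 1 lower member, Hsf1 (1 of 35 against 9.2%).

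Hsp90aa1 had the smallest p, at 291 ± 14.1 FPKM in MPTP plus exercise mice and 249 ± 13.4 FPKM in vehicle mice (log2 fold change 0.23 ± 0.077, unadjusted p = 0.017, adjusted p = 0.75). Cacybp differed by 0.24 ± 0.12, Ptges3 by 0.17 ± 0.087 and Dnaja1 by 0.13 ± 0.070, and of these 3 Cacybp overlapped, by MPTP plus exercise library 3. These values depended on the scale. With quantile normalization Hsp90aa1 differed by 0.084. With libraries rescaled to the same sum Ptges3 differed by 0.085, Dnaja1 by 0.052 and Cacybp by 0.16. Cacybp also differed by 0.15 without MPTP plus exercise library 2 and by 0.15 without vehicle library 3. Of the mitochondrial chaperonin, Hspe1 differed by 0.23 ± 0.12 and Hspd1 by 0.11 ± 0.074, both with overlap. Hsf1 was lower, at a log2 fold change of −0.25 ± 0.10 (unadjusted p = 0.042, adjusted p = 0.75), and its 3 MPTP plus exercise values were all under the lowest vehicle value. Hspb6 (−0.11 ± 0.13), Hspa12a (−0.081 ± 0.14) and Hspa4l (−0.094 ± 0.20) were the next lower members by p, and without vehicle library 1 their differences were −0.0039, 0.055 and 0.039. Markers of smooth muscle, pericytes and fibroblasts were lower for 11 of 12, endothelial markers for 10 of 12 and thalamus markers for 12 of 12. Interferon response genes were higher for 15 of 16, choroid plexus markers for 11 of 12, cortical and hippocampal markers for 9 of 10 and microglia markers for 9 of 12. The part of these cells and states was not tested. The count without overlap depended on the scale: with libraries rescaled to the same sum only Hsp90aa1 stayed apart as higher (1 of 35 against 2.84% of all genes) and Hsf1 as lower (1 of 35 against 16.6%). At that scale 21 of 35 members were above 0, against 29.2% of all genes.

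**Figure D4:**
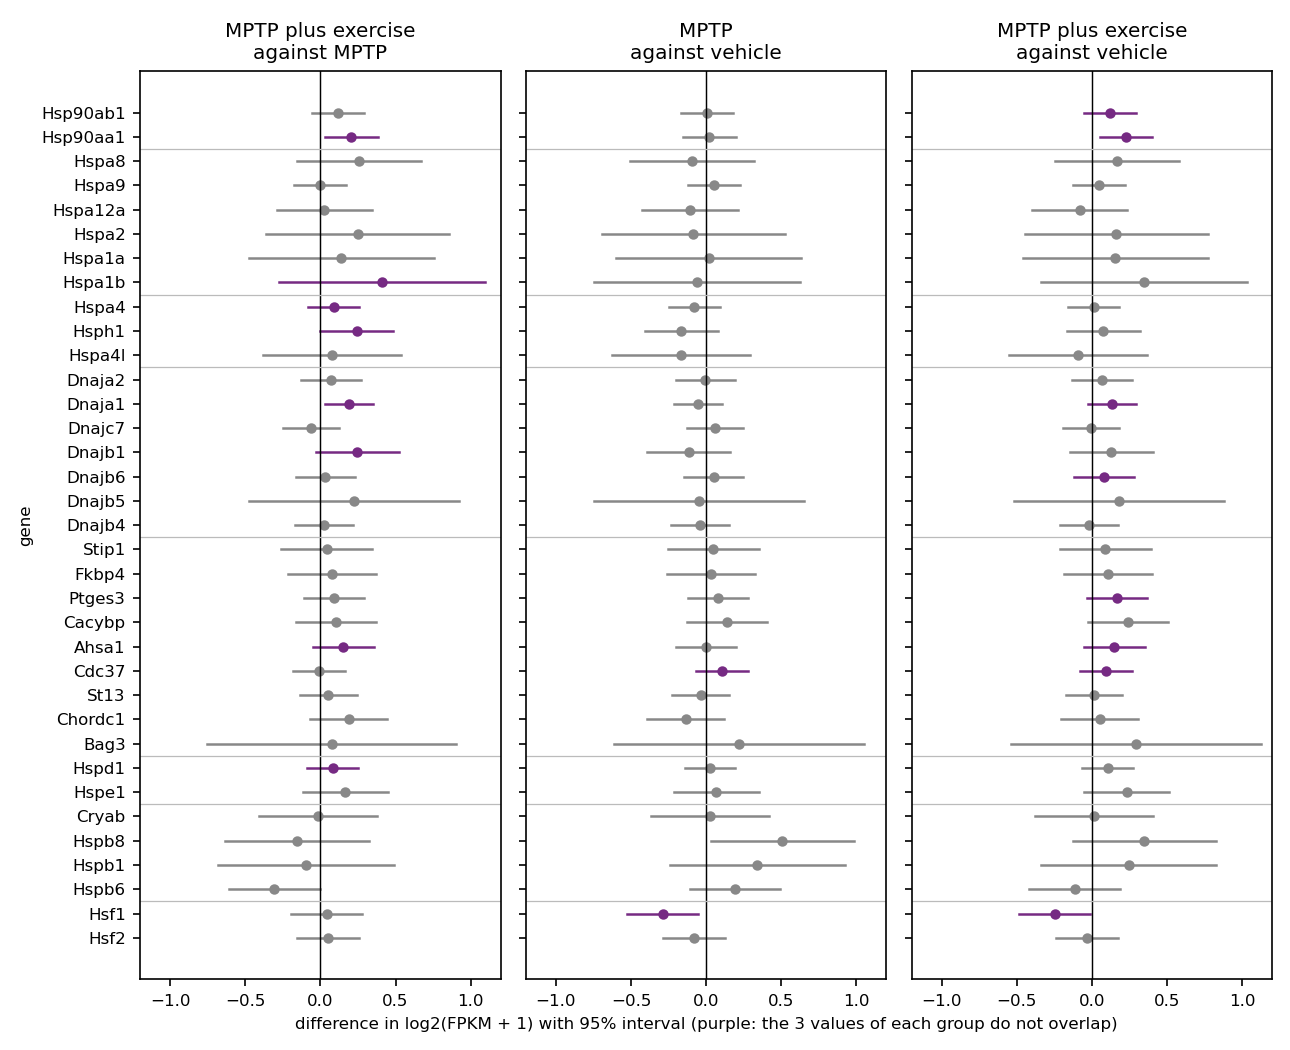
Difference in log2(FPKM + 1) of each member with its 95% interval from limma, in MPTP plus exercise against MPTP, MPTP against vehicle and MPTP plus exercise against vehicle, with genes by role on the y axis; purple marks members whose 3 values per group do not overlap. Most points of the first and last panels lie right of 0 and their intervals mostly cross it, and Hspb1, Hspb6 and Hspb8 lie left of 0 in the first panel and right of it in the second, with Cryab near 0 in both. The first and second panels share the MPTP libraries, so opposite signs there are not separate evidence.

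Several members varied widely between libraries of 1 group. Bag3 (highest over lowest of all 9 libraries 3.43-fold), Hspb1 (2.33-fold), Hspb8 (2.13-fold) and Cryab (1.64-fold) shared their high libraries. Each was highest in library 2 within the MPTP plus exercise group and in library 2 within the vehicle group, and Bag3, Hspb1 and Cryab in library 1 within the MPTP group. The highest and lowest libraries of Bag3, Hspb1 and Hspb8 lie in different groups, so their folds are not a spread within 1 group. The neuron marker sums were highest in library 2 of every group and the oligodendrocyte sums in MPTP plus exercise library 2, MPTP library 1 and vehicle library 1. Dnajb5, a J-domain protein, had 19.00, 10.1 and 16.7 FPKM in MPTP plus exercise mice, 9.65, 16.3 and 12.4 in MPTP mice and 8.26, 15.2 and 17.1 in vehicle mice. Hspa2 had 11.6, 7.35 and 16.4 FPKM in MPTP plus exercise mice, 7.75, 9.42 and 11.04 in MPTP mice and 7.55, 10.5 and 12.3 in vehicle mice. Both were lowest within their group in MPTP plus exercise library 2, MPTP library 1 and vehicle library 1, which are also the lowest of each group for the cortical and hippocampal markers (321, 448 and 184 FPKM). Hspa4l ran the other way and was highest in those same 3 libraries. The part of dissected tissue in these levels was not tested. Over the 9 libraries the coefficient of variation had a median of 11.3% over the members and 12.2% over 10292 genes in the same range of mean level.

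Some members cannot be told fully apart from near-identical copies, because the sources used here do not say how reads that match several places were counted. Of 100-base windows along the longest protein-coding transcript, more than 20% were found, on either strand, in a transcript of another gene for 10 of 35 members, among them Hspa8 (63.4%), Hspa1a (56.5%), Hspa1b (49.9%), Hsp90aa1 (47.5%), Hspb1 (42.7%) and Dnaja1 (24.0%). These shares include antisense neighbours, such as Smu1 with 9.22% of the Dnaja1 windows. For the pair of members with the smallest p in MPTP plus exercise against MPTP, the copy sharing most windows is given. Such copies may hold reads of the gene itself, so their values are no separate evidence. The Hsp90aa1 pseudogene Gm12346 had 51.2, 54.5 and 50.7 FPKM in MPTP plus exercise mice, 47.1, 50.3 and 48.9 in MPTP mice and 49.3, 47.7 and 46.8 in vehicle mice, and the sum of gene and pseudogene was 337, 362 and 331 FPKM in MPTP plus exercise mice, 297, 311 and 295 in MPTP mice and 311, 298 and 282 in vehicle mice. The Dnaja1 pseudogene Gm15542 had 32.3, 29.5 and 31.8 FPKM in MPTP plus exercise mice, 27.9, 29.00 and 29.3 in MPTP mice and 28.1, 28.6 and 28.8 in vehicle mice, and its sum with Dnaja1 was 63.7, 62.01 and 62.4 FPKM in MPTP plus exercise mice, 55.3, 57.6 and 55.8 in MPTP mice and 57.3, 57.6 and 56.3 in vehicle mice. Both sums were without overlap between MPTP plus exercise and MPTP. The Hspa8 pseudogene Gm15459 had 131, 141 and 125 FPKM in MPTP plus exercise mice, 117, 126 and 115 in MPTP mice and 129, 119.9 and 107 in vehicle mice. The strandedness of the counting is not known either, so reads of antisense neighbours may be mixed: exons of Hspd1 and Hspe1 share 112 bases on opposite strands, those of Cryab and Hspb2 252 bases, those of Dnajc7 share 154 bases with the oligodendrocyte gene Cnp, and those of Dnaja1 share 608 bases with Smu1.

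Chaperone genes outside the members were counted by family, and 0 passed adjustment in any comparison. The cytosolic chaperonin TRiC and its partner prefoldin, which fold actin and tubulin, were higher in MPTP plus exercise mice for 13 of 14 genes against MPTP and 13 of 14 against vehicle, and in MPTP mice for 12 of 14 against vehicle (medians 0.067, 0.15 and 0.079). These counts are at the deposited scale only. The members' counts against vehicle depended on the scale, and this list was not counted at other scales. Cct6a had 36.95, 36.9 and 35.3 FPKM in MPTP plus exercise mice, 32.1, 34.2 and 34.2 in MPTP mice and 32.1, 33.2 and 30.6 in vehicle mice, and was apart from both other groups. Cct5 had 51.8, 57.02 and 58.8 FPKM in MPTP plus exercise mice, 51.6, 52.2 and 52.2 in MPTP mice and 52.4, 46.00 and 47.9 in vehicle mice. Endoplasmic reticulum chaperones and their regulators were split, with 10 of 19 higher in MPTP plus exercise against MPTP. Hspa5, the HSP70 of the endoplasmic reticulum, had 48.9, 43.2 and 42.4 FPKM in MPTP plus exercise mice, 43.3, 39.6 and 41.4 in MPTP mice and 39.8, 39.6 and 36.5 in vehicle mice, which was apart only from vehicle. Atf4, a transcription factor of the integrated stress response, had 36.6, 36.2 and 26.6 FPKM in MPTP plus exercise mice, 42.3, 49.2 and 45.1 in MPTP mice and 39.8, 41.2 and 25.1 in vehicle mice, with MPTP mice above both other groups. Atf4 differed by −0.46 in MPTP plus exercise against MPTP (unadjusted p = 0.045) and by 0.39 in MPTP against vehicle (unadjusted p = 0.081), on the log2 scale. These differences share the MPTP libraries and are not separate evidence. Other HSP70 genes, cochaperones and exchange factors were higher for 10 of 19 in MPTP plus exercise against MPTP. Hspa1l, a neighbour of Hspa1a and Hspa1b, had 2.26, 2.03 and 2.47 FPKM in MPTP plus exercise mice, 3.12, 3.32 and 2.54 in MPTP mice and 2.997, 3.33 and 2.59 in vehicle mice and was lower in MPTP plus exercise mice than in either other group. TPR-domain cochaperones outside the members were higher for 8 of 12 against MPTP, mitochondrial chaperones and proteases for 4 of 10, and other small heat shock proteins and factors for 4 of 5 tested. Hsbp1, a binder of heat shock factor 1, had 79.7, 71.5 and 85.5 FPKM in MPTP plus exercise mice, 71.6, 64.3 and 58.2 in MPTP mice and 60.1, 70.1 and 81.9 in vehicle mice. The cold-inducible RNA-binding genes Cirbp and Rbm3 were lower for 2 of 2 in MPTP plus exercise against MPTP and overlapped.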

How the data were processed

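RNA was sequenced from 9 libraries, 3 per group. Per the submitters' processing notes, bcl2fastq, HTSeq and DESeq2 were used with the mouse build GRCm38, without stated versions. Per the labels' protocols, mRNA was captured on magnetic beads and fragmented, and libraries were read on a NovaSeq6000. The values are FPKM per gene as deposited by the authors. Not given in the sources used here are the aligner, the FPKM tool, the handling of reads with several matches, and strandedness.

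Symbols and positions came from GENCODE M21 (GRCm38), with 55154 genes matched and 181 not. Of the genes, 15997 averaged at least 0.5 FPKM over all libraries. These were tested on log2(FPKM + 1) by limma 3.58.1 (R 4.3.3, trended variance), all 9 libraries in 1 fit (6 residual and 2.68 prior degrees of freedom), two-sided, adjusted by Benjamini-Hochberg over all genes at 0.05. The fit was tested on simulated data with independent noise and planted log2 changes of 1 (77% recovered) and 2 (95.9% recovered). The members' differences were smaller than these, and changes of their size were not simulated. The series' design text speaks of 3 mice per group but not of which mouse gave which library, so p-values cover only how these libraries vary. Counts used pandas 2.3.3 and numpy 2.4.6 under Python 3.11.15, and plots matplotlib 3.10.9.

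Replicate numbers carry no stated meaning. Same-numbered MPTP and vehicle libraries deviated together from their group means (correlations 0.25, 0.33 and 0.11), and the pairs with MPTP plus exercise did not in every case (−0.34, −0.13 and 0.25 against MPTP, −0.26, 0.0069 and 0.24 against vehicle). The MPTP and vehicle libraries thus met the rule used here for treating the numbers as pairs. The p-values printed for that comparison nevertheless come from the fit without a block. The blocked model was run for all comparisons. In MPTP against vehicle the smallest limma adjusted p of a member was 0.65 with the block and 0.99 without it.

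Values in every library are given for the 4 members with the smallest p in each direction of each comparison, for 10 members fixed by name (Hspa1a, Hspa1b, Dnajb1, Hsph1, Hspb1, Bag3, Hsp90aa1, Hspa8, Cryab and Hsf1) and for members past the threshold or without overlap. Dnajb5 and Hspa2 were added after their values were seen. Of other lists, counts and up to 2 genes by p are given, and of cell type and state lists counts and sums. Th and Slc6a3 are given in addition. The members and lists were chosen with earlier results of these data known. Alternatives varied the pseudocount, filter, scaling, variance model, block and libraries used.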

Additional observations from a re-analysis of the deposited data

How the results depend on the processing

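No member passed the adjusted threshold in any comparison under any alternative tried. The count of all genes called was small and unsteady. For MPTP plus exercise against MPTP it was 0, but 3 without a filter, and 1 with a mean of at least 5 FPKM, with libraries rescaled to the same sum, or with array weights. Leaving out 1 library at a time it was 0 to 25, the highest without MPTP library 1. For MPTP against vehicle it was 2, 0 with only the 6 libraries compared, and 0 to 32 with 1 library left out, again highest without MPTP library 1. For MPTP plus exercise against vehicle it was 0, and 0 to 2 with 1 library left out. With the replicate block the count for MPTP against vehicle was 3, and the block changed no call of a member in any comparison.

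Scaling moved the summaries that include vehicle. For MPTP against vehicle the median over the members was −0.073 and 7 members were above 0 with libraries rescaled to the same sum, and −0.059 and 8 with that sum taken without the mitochondrial genome, against 0.0048 and 18. The median over all genes moved as well, to −0.065 and −0.055 in that order, against −0.0059. For MPTP plus exercise against vehicle the median over the members was 0.022 with the same sum, 0.034 with quantile normalization and 0.034 with the same sum without the mitochondrial genome, against 0.11. Over all genes it was −0.086, −0.0018 and −0.076 in that order, against −0.022. Members apart as higher, with scalings chosen after the data were seen, were for MPTP against vehicle 0 with the same sum (2.65% of all genes), 2 with the median ratio (5.35%) and 0 with the same sum without the mitochondrial genome (3.23%), against 1 (5.2%). For MPTP plus exercise against vehicle they were 1 with the same sum (2.84%), 3 with quantile normalization (6.91%) and 2 with the same sum without the mitochondrial genome (3.35%), against 7 (6.38%).

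Of the members named by p, Hspb1 in MPTP plus exercise against MPTP spanned −0.30 to 0.066 over its alternatives, and in MPTP plus exercise against vehicle Hspa12a spanned −0.16 to 0.055 and Hspa4l −0.24 to 0.039. The causes were not tested. The absolute depth is unknown, and how far it limits these differences was not tested.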

Other observations

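Genes that glucocorticoids induce were measured beside the members because several HSP90 cochaperones serve the glucocorticoid receptor. Ddit4, an inhibitor of mTORC1 signalling, had 21.8, 20.7 and 26.8 FPKM in MPTP plus exercise mice, 11.98, 15.4 and 17.98 in MPTP mice and 31.2, 19.4 and 18.9 in vehicle mice, and MPTP mice were below both other groups. Its log2 fold change was 0.59 in MPTP plus exercise against MPTP (unadjusted p = 0.022, limma) and −0.57 in MPTP against vehicle (unadjusted p = 0.026), and neither passed adjustment. Both comparisons use the same MPTP libraries, so these differences are not separate evidence. Errfi1, a feedback inhibitor of the EGF receptor, had 8.28, 9.31 and 9.92 FPKM in MPTP plus exercise mice, 7.57, 7.23 and 7.96 in MPTP mice and 8.33, 8.62 and 7.41 in vehicle mice. Its MPTP plus exercise values were all above its MPTP values (log2 fold change 0.24, unadjusted p = 0.028, not past adjustment). Fkbp5, an HSP90 immunophilin that restrains the glucocorticoid receptor, had 3.13, 2.66 and 4.86 FPKM in MPTP plus exercise mice, 2.51, 2.67 and 3.80 in MPTP mice and 2.65, 2.39 and 2.94 in vehicle mice, with overlap between all groups.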
